A study of Mus musculus with 6 samples.

Results

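Histone transcripts were measured in 6 libraries of poly(A)-selected mouse testis RNA, and 81 histone genes of the 23253 genes listed in any library were followed. They were taken by symbol, as every gene whose symbol opens with the older mouse histone stems (Hist1h to Hist4h, H1f, H2af, H2bf and H3f), with 1 gene left out. By symbol, 62 are replication-dependent genes, 11 are replacement genes, 6 are testis variants, 1 is an oocyte variant (H1foo) and 1 is a pseudogene (Hist3h2bb-ps). The RNA came from testes of C57BL/6 mice aged 8 months, with 3 libraries labelled control and 3 labelled cKO, a conditional knockout of L3mbtl2. L3MBTL2 is a chromatin protein of a Polycomb repressive complex. Which deleter strain was used, and in which cells the gene was removed, is not in the labels, nor is whether each library is a different animal. P-values therefore measure the spread between these libraries only, which may be partly technical. Strandedness and read length are not given in the sources used here.

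Histones H2A, H2B, H3 and H4 form the core around which DNA is wound, and H1 binds the DNA between cores. Replication-dependent genes supply histones during DNA synthesis, and most of their messages end in a conserved stem-loop bound by SLBP instead of a poly(A) tail. Replacement genes such as H3f3a and H2afz make polyadenylated messages throughout the cell cycle and in cells that no longer divide. In male germ cells, testis variants such as TH2A, TH2B and H1t are made in spermatocytes, and short H2A variants are made in spermatids. Transition proteins and protamines then take the place of most histones in the maturing sperm nucleus. An oligo(dT) library captures polyadenylated messages, so it reads the stem-loop messages only where they carry a tail or an internal run of A, and the levels of replication-dependent genes below are levels in the poly(A) fraction.

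The stem-loop is a sequence feature of most replication-dependent genes with an annotated 3′ untranslated region, though not of them alone. It is shown here for replication-dependent genes described below, with near and far transcript ends, and for Hist1h1t and H2afx of the other classes. The sequences were read from GENCODE M21 transcripts on GRCm38, in the 3′ untranslated region, and the capitals mark the 16 bases of the stem-loop.
Hist2h2aa1: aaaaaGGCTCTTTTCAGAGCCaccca
Hist2h2aa2: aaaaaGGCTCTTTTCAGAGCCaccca
Hist1h2bp: acaaaGGCTCTTTTCAGAGCCaccca
Hist1h4a: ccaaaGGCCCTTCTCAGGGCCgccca
Hist1h3a: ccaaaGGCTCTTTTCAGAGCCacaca
Hist1h4h: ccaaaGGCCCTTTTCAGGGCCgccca
Hist1h1c: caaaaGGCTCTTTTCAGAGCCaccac
Hist1h1t: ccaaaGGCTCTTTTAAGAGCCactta
H2afx: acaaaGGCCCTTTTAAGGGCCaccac

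Of the 62 replication-dependent genes, 61 matched a GENCODE transcript, 50 had an annotated 3′ untranslated region, and 43 of those 50 held the stem-loop consensus. Of all 141767 GENCODE transcripts, 111 (0.0783%) held it. In GENCODE, the distance from the stem-loop to the annotated transcript end separated 2 kinds of gene. In 21 of the 43 the transcript ended within 100 bases of the stem-loop, as in Hist2h2aa1 and Hist2h2aa2 (35 bases after it), Hist1h2bp (38), Hist1h3a (37) and Hist1h4h (46). In the other 22 it ran on, for 108 bases in Hist1h4a and 840 bases in Hist1h1c, both of which held the poly(A) signal AATAAA in their last 50 bases. The signal was there in 9 of these 22, 13 lacked it (Hist2h3c2 among them, with 377 bases after the stem-loop), and none of the 21 with a near end had it. A second Hist1h2bp transcript held no stem-loop and carried AATAAA near its end. No exact match was found in the matched transcripts of Hist1h2bc and Hist2h2be, which says only that these letters are not there. Among the other classes the stem-loop was found in H2afx, Hist1h1t and H2bfm. In H2afx, which codes for the H2A form phosphorylated at DNA breaks, it lay 822 bases before the end, and in Hist1h1t 185. Of the 6 testis variants, 3 had an annotated 3′ untranslated region. The matched transcripts of Hist1h2aa, Hist1h2ba and H2afb3 had none, so a stem-loop could not be seen there. Levels of the replication-dependent genes overlapped widely between the near, far and unmatched kinds. Over the 6 libraries, the median of the genes' mean levels was 0.475 FPKM for the 21 genes with a near end. It was 0.253 FPKM for the 22 with a far end and 0.357 FPKM for the 7 genes without an exact match. The highest means were 193, 26.7 and 17.2 FPKM in that order. The 3 most abundant replication-dependent genes, Hist2h2aa1, Hist2h2aa2 and Hist1h2bp, were all of the near kind. FPKM, fragments scaled to gene length and library depth, is the authors' deposited value. It rests on deposited gene lengths, which can be shorter than the GENCODE transcripts. Hist1h1c has 725 bases there and 1560 in GENCODE, and Hist4h4 has 439 and 2863. The near and far kinds are thus of the GENCODE annotation and not of the models behind the FPKM values.

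The testis variants TH2A (Hist1h2aa) and TH2B (Hist1h2ba) share a promoter, and their values can be read beside it. Their RefSeq start sites lie 280 bases apart on chromosome 13 and point away from each other, so the 250 bases before one start run into those before the other. The RefSeq promoter tables of GRCm38.p6 held 72 of the 81 genes. The stretch before Hist1h2aa (chr13:23934187-23934436, plus strand) and that before Hist1h1t, the H1t gene (chr13:23695561-23695810, plus strand), are printed with capitals at each match on either strand to the CCAAT box, the TATAA box, the octamer ATGCAAAT or the H1 box, whose letters are AAACACA.
Hist1h2aa: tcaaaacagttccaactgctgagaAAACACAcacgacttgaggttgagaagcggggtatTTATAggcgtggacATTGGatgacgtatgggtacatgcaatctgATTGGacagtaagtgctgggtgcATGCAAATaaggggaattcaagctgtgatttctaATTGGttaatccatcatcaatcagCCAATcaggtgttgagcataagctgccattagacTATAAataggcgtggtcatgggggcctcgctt
Hist1h1t: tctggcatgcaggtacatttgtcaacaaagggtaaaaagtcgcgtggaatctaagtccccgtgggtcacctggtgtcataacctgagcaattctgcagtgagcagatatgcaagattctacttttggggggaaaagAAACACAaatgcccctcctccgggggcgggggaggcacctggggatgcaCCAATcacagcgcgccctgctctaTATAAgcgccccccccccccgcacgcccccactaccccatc

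In the Hist1h2aa stretch the 4 CCAAT boxes, the octamer ATGCAAAT and 2 TATAA matches fell between the divergent starts, with 1 TATAA 32 bases before the Hist1h2aa start and the other 94 bases before the Hist1h2ba start. The H1 box lay 61 bases before the Hist1h2ba start. In Hist1h1t the H1 box lay 114 bases, the CCAAT box 65 bases and the TATAA box 41 bases before the start. CCAAT was present in 82.5% of 57 replication-dependent promoters and in 33.8% of all 32851 promoters of this length. TATAA was present in 63.2% and 22.8%, and the octamer in 21.1% and 1.6%. The octamer was found before 6 of 15 H2A and 6 of 16 H2B replication-dependent promoters, and before none of the 10 H3 or 11 H4 promoters. The H1 box was found before 4 of the 5 replication-dependent H1 genes and in 6.25% of all promoters. Of 9 replacement promoters, 55.6% held CCAAT and 11.1% held TATAA. The promoter of H2afb1, the most abundant testis variant, held none of the 4 motifs. A match is a run of letters and no measure of binding.

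The libraries held 17689205 to 18822050 expected counts each, and histone genes took 0.150 to 0.162% of them. L3mbtl2 had 658, 705 and 673 expected counts under the label control and 1030, 1105 and 1031 under the label cKO. Its level was thus higher under the label cKO, without overlap, against the direction a knockout label implies. Its log2 fold change was 0.67 (SE 0.10; edgeR adjusted p = 0.166, DESeq2 adjusted p = 0.000497, exact two-sided permutation p = 0.1, the smallest that 3 libraries against 3 allow). By FPKM the gap was smaller, at 14.04, 14.9 and 13.6 against 15.9, 17.1 and 16.03 FPKM, again without overlap. On that scale, limma on log2(FPKM + 1) gave a difference of 0.19 (adjusted p = 0.252). FPKM divides by library total and gene length. The totals were similar, so a length that differs between libraries enters these values, and it was not examined for L3mbtl2. Without the library labelled control 2 the edgeR adjusted p was 0.00848. The deposited file names also carry the opposite genotype from the titles, so every direction below is one between labels, and control 1 to 3 and cKO 1 to 3 stand for the libraries so labelled. In expression over all genes, the library labelled control 2 correlated with those labelled cKO at r = 0.980 to 0.982 and with that labelled control 3 at r = 0.937. All 10 Leydig cell and all 15 Sertoli cell markers and 13 of 13 round spermatid markers were detected in the fit, as were 14 elongating spermatid markers, so the tissue label matched the data.

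No histone gene passed the adjusted threshold in the main test, by edgeR on all 6 libraries, while DESeq2 called 1 and edgeR without the library labelled control 2 called 6. Of the 81, 34 had enough counts to be tested: all 11 replacement genes, all 6 testis variants, 16 of the 62 replication-dependent genes and the pseudogene. The quasi-likelihood test of edgeR, adjusted over 18269 genes, called none of them, and it called 0% of all genes in either direction at an adjusted p under 0.05. At an unadjusted p under 0.05, 3 of the 34 were higher in the libraries labelled cKO (H2afy3, H2afb1 and Hist2h2be) and 4 were lower (H1f0, Hist1h1c, Hist1h2bc and Hist1h4h). Over all genes tested, 8.85% were higher and 18.8% lower at that level. DESeq2 gave 30 of the 34 an adjusted p and called 1, Hist1h2bc, which was lower. It called 0.405% of all genes higher and 7.67% lower. Without the library labelled control 2, edgeR called 2 of the histone genes higher (H2afb1 and Hist2h2be) and 4 lower (H1f0, H2afj, Hist1h1c and Hist1h2bc), beside 11% and 20.7% of all genes. By depth-scaled counts, the groups did not overlap for 6 histone genes that were higher under the label cKO and 2 that were lower, beside 18% and 19.8% of all genes. The shares among histone genes were close to those of all genes or below them, with few genes behind each.

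**Figure D1:**
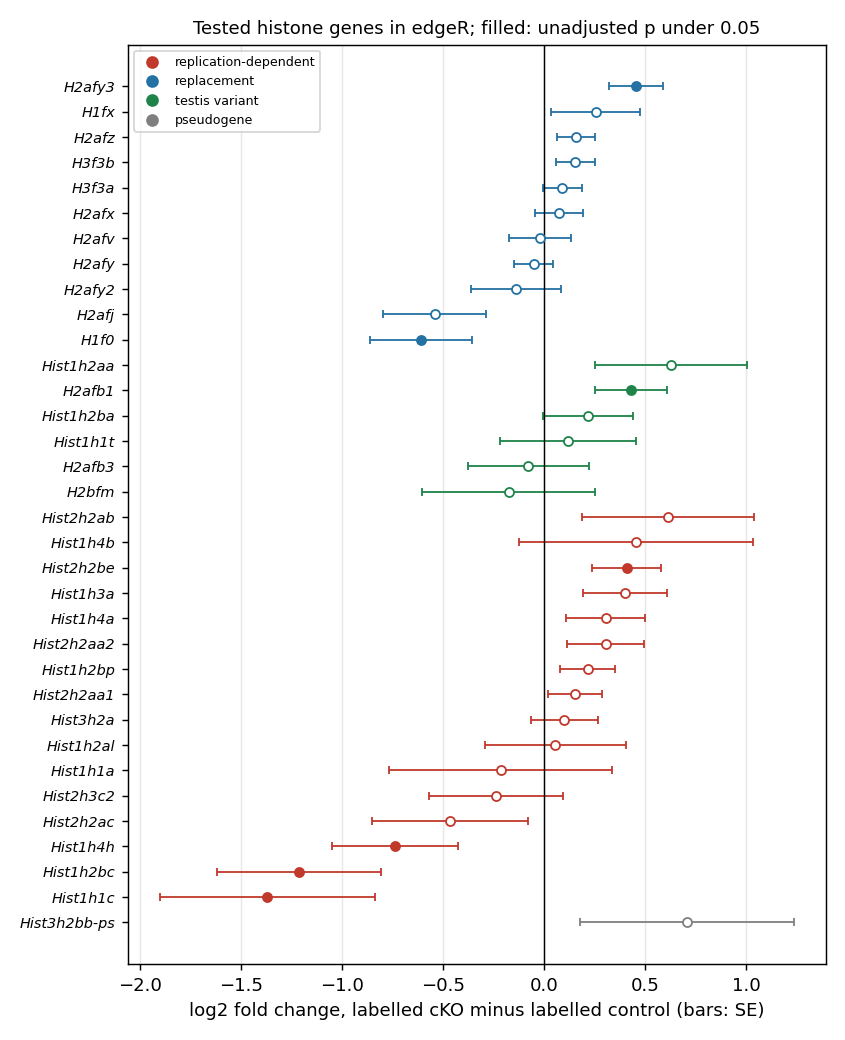
Log2 fold change (horizontal axis, labelled cKO minus labelled control) of the 34 tested histone genes from edgeR, with bars for 1 SE, coloured by class. Filled points are the 7 genes with an unadjusted p under 0.05, and Hist1h1c and Hist1h2bc lie farthest to the left, at -1.37 and -1.21.

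Replacement genes supplied most of the histone message in the poly(A) fraction of these testes, which can miss replication-dependent messages without a tail. Together they reached 859, 896 and 855 FPKM under the label control and 870.2, 903 and 866 FPKM under the label cKO. Replication-dependent genes summed to 535, 432 and 425 FPKM against 458.5, 505 and 451.5, and testis variants to 205, 236 and 146 against 250.5, 242 and 238 FPKM. The first 2 classes overlapped between the labels, whereas the testis variant sum, nearly all of it H2afb1, was higher in every library labelled cKO than in any labelled control. The other 5 testis variants summed to 13.97, 15.6 and 9.2 against 13.1, 12.9 and 13.1 FPKM and overlapped. The group means were 870.0 ± 22.6 against 880.0 ± 20.3 FPKM (SD, n = 3) for replacement genes and 464 ± 61.4 against 472 ± 29.3 FPKM for replication-dependent genes. For testis variants they were 195 ± 45.8 against 243 ± 6.41 FPKM, with the library labelled control 3 the lowest. Over all 6 libraries these classes held 55.95%, 29.9% and 14.03% of the members' summed FPKM. The median log2 fold change was 0.08 over the 11 replacement genes (6 positive, 5 negative), 0.13 over the 16 tested replication-dependent genes (10 and 6) and 0.17 over the 6 testis variants (4 and 2). Over all 18269 genes it was -0.0048, with 49.5% positive and 50.5% negative. Scaled by library totals alone, the median of all genes was -0.10 and that of the replacement genes -0.02. Without the library labelled control 3, the median of the testis variants was -0.0065.

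**Figure D2:**
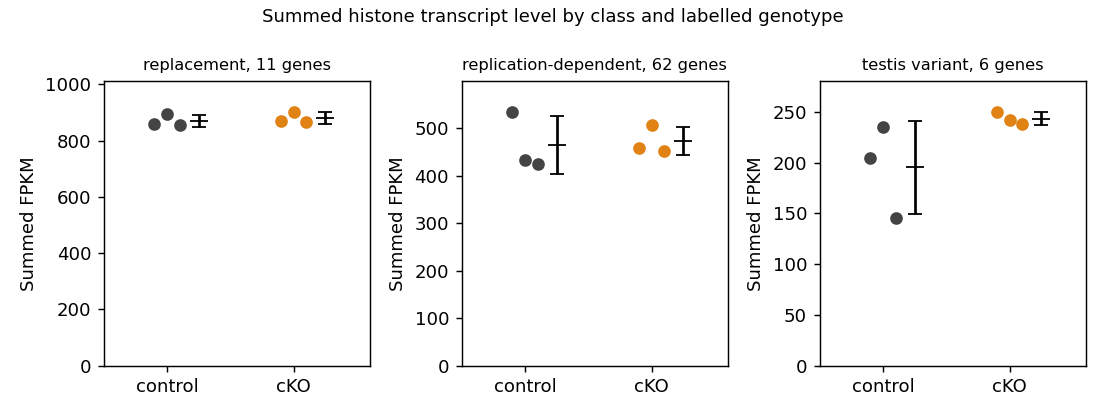
Summed FPKM of the replacement, replication-dependent and testis variant genes (vertical axes, starting at 0), with 1 point per library by labelled genotype and bars for the mean and SD (n = 3). The testis variants sit at 146 to 236 FPKM under the label control and at 238 to 250.5 FPKM under the label cKO, a gap set by H2afb1, and the other classes overlap.

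In the poly(A) fraction, the class that supplied most of the message differed between the histone proteins. For H3, the replacement genes summed to 522 ± 28.2 and 529 ± 10.1 FPKM (labelled control and cKO; SD, n = 3) and the 12 replication-dependent genes to 18.9 ± 3.06 and 21.1 ± 1.75 FPKM. The replacement sum was 22.1 to 33.6 times the replication-dependent sum in the 6 libraries. H2A was split over all 3 classes, with 310 ± 61.9 and 330 ± 18.3 FPKM from replication-dependent genes, 290 ± 6.68 and 292 ± 7.89 FPKM from replacement genes, and 189 ± 44.2 and 237 ± 5.92 FPKM from testis variants. Its replacement sum was 0.776 to 1.095 times the replication-dependent sum. H2B and H4 have no replacement gene here. H2B replication-dependent genes summed to 89.6 ± 9.22 and 80.85 ± 7.99 FPKM, its testis variants to 4.54 ± 1.11 and 4.52 ± 0.425 FPKM, and H4 genes to 33.2 ± 3.23 and 34.7 ± 6.115 FPKM. All H2B messages together were 0.0925 to 0.151 times all H2A messages, although the proteins pair in the nucleosome. For linker histone H1, replacement genes gave 58.2 ± 12.3 and 59.0 ± 5.28 FPKM and the 5 replication-dependent genes 11.9 ± 7.98 and 4.79 ± 1.11 FPKM. The ratio of those H1 sums ranged from 2.38 in the library labelled control 3 to 13.75 in that labelled cKO 3. Of the 5 genes, 1 had a mean of at least 1 FPKM, Hist1h1c. It supplied 19.5 of the 20.6 FPKM in control 3 and 2.87 of the 3.87 FPKM in cKO 3, so the ratio mostly follows that gene.

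**Figure D3:**
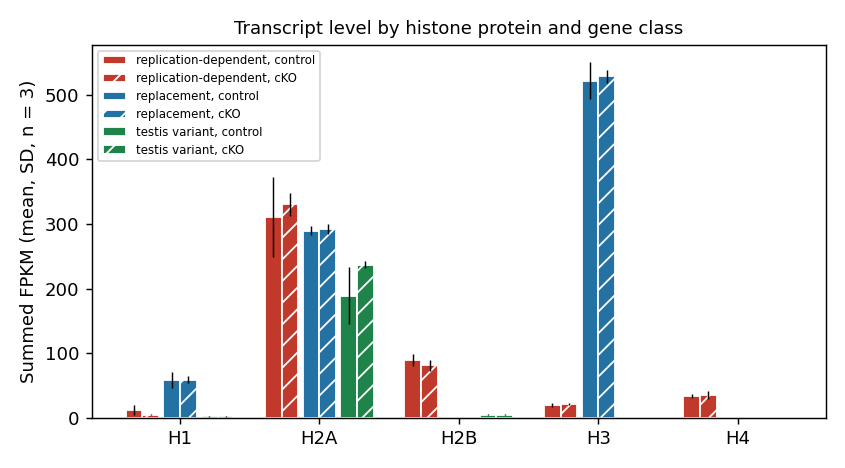
Summed FPKM (vertical axis, mean with SD, n = 3) by histone protein (horizontal axis) and gene class, with plain bars for the label control and hatched bars for the label cKO. In the poly(A) fraction, H3 message is nearly all from replacement genes (522 and 529 FPKM) and H2A message is spread over 3 classes. H4 has replication-dependent genes alone.

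H3f3a and H3f3b, a gene pair that codes for the same replacement protein H3.3, held 33.6% of all histone FPKM. H3f3a (chromosome 1, 180802560 to 180813605) was the most abundant member, at 306, 348 and 333 FPKM under the label control and 328, 327 and 329 FPKM under the label cKO. The second group lay inside the spread of the first. The log2 fold change was 0.09 (SE 0.10; edgeR adjusted p = 0.529), and it was -0.0065 when scaled by library totals. H3f3b stood at 187, 202 and 191 against 191, 213 and 199 FPKM, again with overlap, and its log2 fold change was 0.16 (SE 0.10; edgeR adjusted p = 0.293).

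Among the H2A replacement genes, H2afz, which codes for the H2A.Z found at promoters, was the most abundant, at 196, 206 and 182 against 201, 208 and 201 FPKM. Its FPKM overlapped between the labels while its normalised counts did not, and the log2 fold change was 0.16 (SE 0.10; edgeR adjusted p = 0.280). H2afv, the second H2A.Z gene, was lower, at 9.97, 8.93 and 12.45 against 9.37, 9.71 and 9.74 FPKM. H2afx stood at 32.65, 29.9 and 27.55 against 29.8, 31.9 and 27.1 FPKM. Neither H2afv nor H2afx differed beyond the spread (log2 fold changes of -0.02 and 0.08, edgeR adjusted p = 0.938 and 0.671), and the sign of H2afx turned under library totals (-0.02). The macroH2A genes, which code for H2A with a large extra domain, showed small differences: H2afy stood at 33.0, 32.5 and 36.9 against 31.4, 31.6 and 29.2 FPKM, and H2afy2 at 3.13, 2.39 and 4.01 against 2.50, 2.85 and 2.71 FPKM. Their log2 fold changes were -0.05 and -0.14 (edgeR adjusted p = 0.742 and 0.682).

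H2afy3, which RefSeq lists as a transcribed pseudogene, had the smallest edgeR p of the tested histone genes, while in DESeq2 that was Hist1h2bc. It stood at 9.21, 7.91 and 7.86 FPKM under the label control and 10.2, 11.3 and 10.4 FPKM under the label cKO. All 3 libraries labelled cKO were higher than all 3 labelled control. Its log2 fold change was 0.45 (SE 0.13; unadjusted p = 0.00993, edgeR adjusted p = 0.166), and DESeq2 gave an adjusted p of 0.0594. H2afj, an H2A gene with a replacement pattern, ran the other way. Its values were 9.43, 5.74 and 11.4 against 6.54, 5.63 and 4.80 FPKM, with the libraries labelled control 1 and control 3 high and control 2 among those labelled cKO. Its log2 fold change was -0.54 (SE 0.25; edgeR adjusted p = 0.200), and it was -0.74 (edgeR adjusted p = 0.02305) without the library labelled control 2 and -0.33 without that labelled control 3.

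The linker histone genes varied between the libraries labelled control. H1fx, a replacement H1 (chromosome 6), stood at 61.5, 45.45 and 32.25 FPKM under the label control and 53.45, 55.9 and 46.0 FPKM under the label cKO. The control values enclosed the others, and the log2 fold change was 0.26 (SE 0.22; edgeR adjusted p = 0.435). H1f0, which codes for the H1.0 that builds up in cells that have stopped dividing, stood at 10.8, 7.80 and 16.9 against 6.80, 7.63 and 7.21 FPKM. The library labelled control 3 was highest and control 1 second, and the label groups overlapped by normalised counts. H1f0 had a log2 fold change of -0.61 (SE 0.25; unadjusted p = 0.0448, edgeR adjusted p = 0.176). It was -0.80 (edgeR adjusted p = 0.01945) without the library labelled control 2 and -0.28 without that labelled control 3. H1foo, the oocyte H1, was listed at 0.05 FPKM in each library.

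Of the testis variants, H2afb1 held 93.2 to 94.8% of the class's FPKM in the 6 libraries. The deposited gene with this older symbol is the gene RefSeq calls H2al2a, which codes for the spermatid variant H2A.L.2 (chromosome 2, 17996417 to 17996958). It stood at 191, 220.0 and 136 FPKM under the label control and 237, 229 and 225 FPKM under the label cKO. The library labelled control 3 was lowest by far, and the label groups did not overlap. H2afb1 had a log2 fold change of 0.43 (SE 0.18; unadjusted p = 0.0430, edgeR adjusted p = 0.175, DESeq2 adjusted p = 0.134). It was 0.63 (edgeR adjusted p = 0.02285) without the library labelled control 2 and 0.25 without that labelled control 3. The ratio of H2afb1 to Prm1, a protamine gene of spermatids, ranged from 0.0269 to 0.0305 over all 6 libraries and overlapped between labels, with means of 0.0283 ± 0.00159 and 0.0295 ± 0.000942 (SD, n = 3).

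The other testis variants were low in the poly(A) fraction. H2afb3, a second short H2A of spermatids on chromosome X, stood at 5.30, 6.30 and 3.49 against 4.39, 3.93 and 5.04 FPKM, with overlap and a log2 fold change of -0.08 (SE 0.30; edgeR adjusted p = 0.872). Hist1h2ba, the TH2B gene, stood at 3.72, 4.26 and 2.75 against 4.35, 3.40 and 3.39 FPKM, and its log2 fold change was 0.22 (SE 0.22; edgeR adjusted p = 0.515). By FPKM, H2afb1 was 49.6 to 67.3 times as abundant as Hist1h2ba. The latter's deposited FPKM rests on a length of 1547 to 1874 bases, which differs between libraries and exceeds its RefSeq span (chromosome 13, 23933725 to 23934156), so its level per length depends on a longer transcript model. Hist1h2aa, the TH2A gene across the shared promoter, stood at 1.7, 1.78 and 1.11 against 1.73, 2.94 and 2.01 FPKM. Its normalised counts did not overlap between labels, but they rest on means of 11 and 16.7 expected counts, and the log2 fold change was 0.63 (SE 0.38; edgeR adjusted p = 0.280). By FPKM, the ratio of Hist1h2aa to Hist1h2ba was 0.426 ± 0.0276 under the label control and 0.618 ± 0.2345 under the label cKO. Under the label cKO it ranged from 0.398 to 0.865. The counts lay further apart, with means of 107 and 121 expected counts for Hist1h2ba (labelled control and cKO). The length behind the FPKM of Hist1h2aa was 452 bases, so this ratio rests on the longer Hist1h2ba model. Hist1h1t stood at 2.30, 1.93 and 1.23 against 2.02, 1.95 and 1.57 FPKM (log2 fold change 0.12, SE 0.34; edgeR adjusted p = 0.823). H2bfm stood at 0.95, 1.32 and 0.62 against 0.59, 0.69 and 1.13 FPKM. In 5 of the 6 testis variants (H2afb1, H2afb3, Hist1h2ba, Hist1h2aa and Hist1h1t) the library labelled control 3 was the lowest of all 6, and in H2bfm the lowest was cKO 1. This was not particular to testis variants. By FPKM, control 3 was also the lowest of all 6 for H2afz, H1fx, H2afy3, Hist1h2bp, Hist1h4a, Hist1h3a, Hist2h2aa1 and Hist2h2aa2. The share over all genes was not counted.

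**Figure D4:**
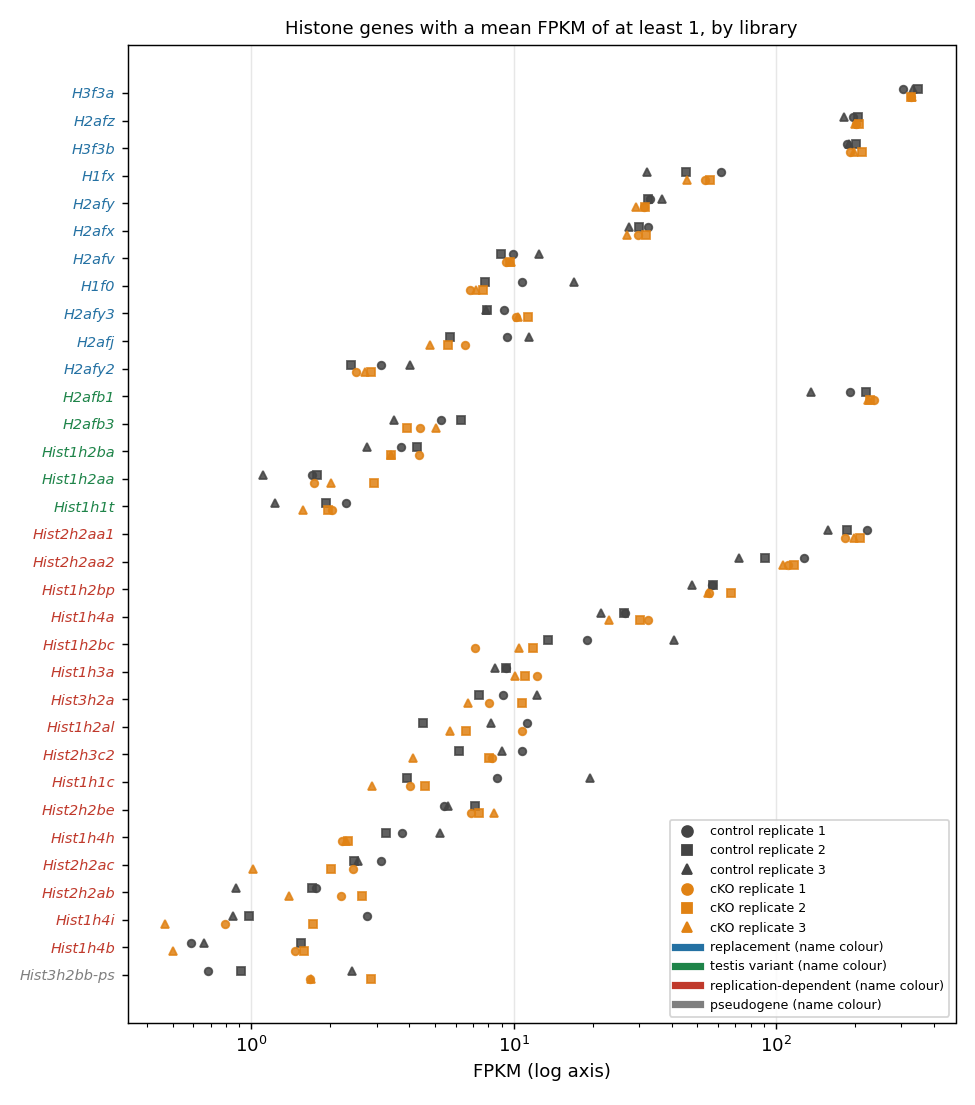
FPKM (log axis) of the 33 histone genes with a mean of at least 1 FPKM, 1 point per library, with dark symbols for the label control, orange symbols for the label cKO and gene names coloured by class. H3f3a, H2afb1, H2afz, H3f3b and Hist2h2aa1 have the highest means, 193 to 328 FPKM, and the library labelled control 3 (dark triangle) lies apart for Hist1h1c, Hist1h2bc and H1f0.

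Replication-dependent genes were sparse in the poly(A) fraction, apart from a few. Of the 62, 46 had a mean under 1 FPKM, 25 were listed in all 6 libraries and 13 in 1 library only. Their median was 0.308 FPKM, whereas that of the 11 replacement genes was 29.8 FPKM. The 49 replication-dependent Hist1 genes, on chromosome 13, held 9.03% of the histone FPKM, and the 10 Hist2 genes of chromosome 3 held 20.3%. Most of the latter came from Hist2h2aa1 (chromosome 3, 96245497 to 96246052) and Hist2h2aa2 (chromosome 3, 96239779 to 96240374), near-identical copies that code for H2A. Every run of 50 bases in Hist2h2aa2 also occurs in Hist2h2aa1, so reads cannot be split between them with certainty and their sum is the sounder value. It was 351, 277 and 230.5 FPKM under the label control and 294, 326 and 305 FPKM under the label cKO. The control values enclosed the others. The copies held 54.25 to 67.5% of the replication-dependent FPKM in each library. Taken singly, their log2 fold changes were 0.15 and 0.31 (edgeR adjusted p = 0.444 and 0.293).

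Hist1h2bp, an H2B gene, was next, at 56.8, 57.65 and 48.05 against 55.65, 67.25 and 55.3 FPKM, with overlap (log2 fold change 0.22, SE 0.14; edgeR adjusted p = 0.301). Hist1h4a, an H4 gene, stood at 26.5, 26.4 and 21.5 against 32.6, 30.3 and 23.1 FPKM. Its lowest library labelled cKO lay inside the control range (log2 fold change 0.31, SE 0.19; edgeR adjusted p = 0.304). Its neighbour on chromosome 13, the H3 gene Hist1h3a, stood at 9.36, 9.31 and 8.45 against 12.3, 11.1 and 10.1 FPKM. These groups did not overlap, yet the log2 fold change of 0.40 (SE 0.21) had an edgeR adjusted p of 0.226. Hist3h2a (9.10, 7.35 and 12.3 against 8.03, 10.7 and 6.72 FPKM) and Hist1h2al (11.2, 4.49 and 8.19 against 10.8, 6.57 and 5.72 FPKM), an H2A pseudogene in RefSeq, overlapped, with log2 fold changes of 0.10 and 0.06. Both turn negative on the FPKM scale, at -0.15 and -0.01. The FPKM of Hist3h2a rests on a length that differs between libraries, from 962 to 1392 bases. Its expected counts were 178, 179 and 199 against 203, 211 and 168. Hist2h3c2, an H3 gene, stood at 10.7, 6.17 and 9 against 8.28, 8.07 and 4.13 FPKM. Its near copy Hist2h3c1 was listed in the library labelled cKO 3 alone, at 3.58 FPKM, and the log2 fold change moved from -0.23 for Hist2h3c2 to 0.0032 for the sum.

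A further 4 replication-dependent genes had an unadjusted p under 0.05, 3 of them lower under the label cKO. Hist1h2bc, an H2B gene (chromosome 13, 23684199 to 23692480), stood at 19.0, 13.5 and 41.0 FPKM under the label control and 7.12, 11.9 and 10.5 FPKM under the label cKO. Every control value lay above every cKO value, with control 3 the highest. The means were 24.5 ± 14.5 and 9.82 ± 2.44 FPKM (SD, n = 3), and the log2 fold change was -1.21 (SE 0.41; edgeR adjusted p = 0.166, DESeq2 adjusted p = 0.0355). Without the library labelled control 3 it was -0.63, and without control 2 it was -1.47 (edgeR adjusted p = 0.0183). Hist1h1c, which codes for the linker histone H1.2, stood at 8.66, 3.92 and 19.5 against 4.02, 4.59 and 2.87 FPKM. Here control 2 lay among the libraries labelled cKO. Hist1h1c's log2 fold change was -1.37 (SE 0.53; edgeR adjusted p = 0.170, DESeq2 adjusted p = 0.0752), it was -0.61 without control 3, and it was -1.73 (edgeR adjusted p = 0.0156) without control 2.

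Hist1h4h, an H4 gene, stood at 3.76, 3.25 and 5.24 against 2.21, 2.34 and 2.29 FPKM, without overlap, on means of 28.1 and 16.4 expected counts. Its log2 fold change was -0.74 (SE 0.31; edgeR adjusted p = 0.178). Hist2h2be, an H2B gene, was the one with higher values under the label cKO, at 5.41, 7.14 and 5.64 against 6.89, 7.36 and 8.38 FPKM. Its FPKM overlapped at 1 library, labelled control 2, while its normalised counts did not overlap. The log2 fold change was 0.41 (SE 0.17; edgeR adjusted p = 0.176, and 0.0242 without control 2).

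Markers of other testis cells were uneven across the same libraries. The 10 Leydig cell markers, genes of the steroid-making cells between the tubules, summed to 4256, 2107 and 10290 FPKM under the label control and 1496, 1651 and 1513 FPKM under the label cKO. The 15 Sertoli cell markers, genes of the somatic cells that nurse germ cells, summed to 1330, 897 and 2387 FPKM against 698, 722 and 680.3 FPKM. Both were highest in control 3, next in control 1 and lowest of the controls in control 2. Hist1h2bc, Hist1h1c, H1f0 and H2afj, chosen after their values were seen, had the same order among the controls. This order was not particular to them. By FPKM, H2afy, H2afy2, H2afv, Hist3h2a and Hist1h4h had it too, and its share over all genes was not counted. The 14 elongating spermatid markers summed to 28680, 30490 and 21850 FPKM against 34190, 32230 and 31480 FPKM, and the 13 round spermatid markers to 1874, 1993 and 1507 FPKM against 2128, 2185 and 2091 FPKM. H2afb1 had the same order among the controls, with control 2 highest and control 3 lowest. By FPKM, so did H2afb3, Hist1h2ba, Hist1h2aa, H2bfm, H2afz and Hist1h2bp. The Hist2h2aa pair did not, as control 1 was its highest library. The spermatocyte markers, genes of meiotic cells, summed to 3679, 4237 and 3183 against 4372, 4163 and 4265 FPKM, and 14 of 15 log2 fold changes were positive (median 0.28). The spermatogonium markers, genes of the dividing germ cells, ran the other way, at 114, 101 and 136 against 82.9, 86.7 and 82.8 FPKM without overlap. Of these 14 tested markers, 11 had negative log2 fold changes (median -0.41), and DESeq2 called 2 lower, beside 7.67% of all genes. At an unadjusted p under 0.05, 6 of the 14 were lower, beside 18.8% of all genes. Dmrt1, counted among these 6, is also on the Sertoli list, so the lists are not fully separate. All 10 Leydig and all 15 Sertoli markers had negative log2 fold changes (medians -1.69 and -0.998), and all 13 and all 14 spermatid markers had positive ones (medians 0.34 and 0.37). At an unadjusted p under 0.05, all 10 Leydig and all 15 Sertoli markers were lower. Higher at that level were 11 of 13 round spermatid, 9 of 14 elongating spermatid and 6 of 15 spermatocyte markers, beside 8.85% of all genes. edgeR called none of the markers on any list. DESeq2 called 4 Leydig and 13 Sertoli markers lower. It called 1 round spermatid and 1 spermatocyte marker higher, beside 0.405% of all genes. The part of these markers in the histone values was not tested. In bulk tissue, fewer cells of a type and less RNA per cell cannot be told apart.

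**Figure D5:**
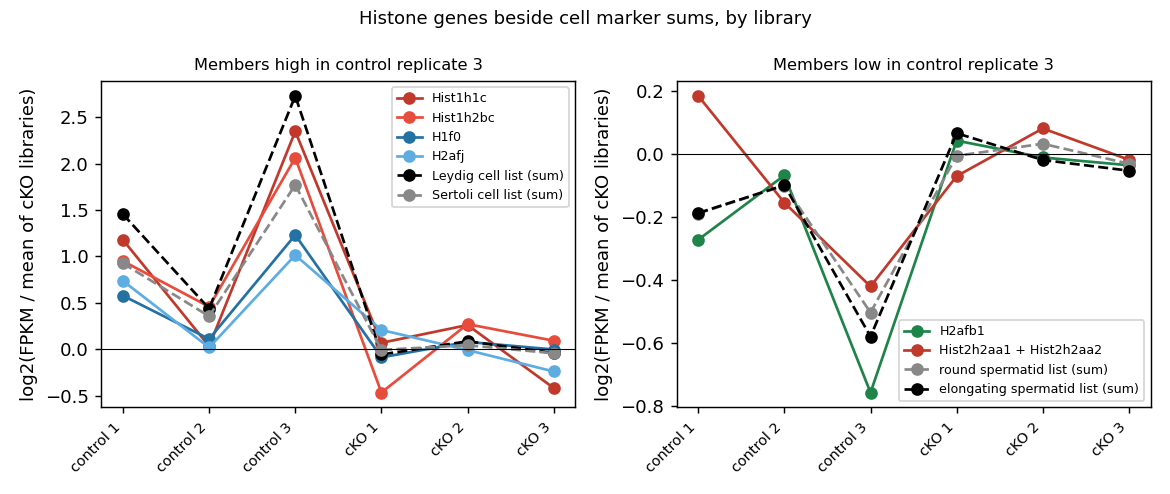
Log2 of FPKM over the mean of the libraries labelled cKO (vertical axes), by library (horizontal axes), for histone genes chosen after their values were seen and for summed marker lists (dashed). Hist1h1c, Hist1h2bc, H1f0 and H2afj peak in the library labelled control 3 with the Leydig and Sertoli sums (left). H2afb1 and the Hist2h2aa pair dip there with the spermatid sums (right), but the pair is highest in control 1, unlike those sums.

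Genes that act on histones showed no common direction. Of 20 genes of histone message processing, all tested, 12 had positive and 8 negative log2 fold changes (median 0.06, and -0.04 under library totals). Nelfe, a subunit of the negative elongation factor, stood at 103, 104.5 and 83.3 against 116, 113.5 and 108 FPKM, the one gene of that list with an unadjusted p under 0.05 (log2 fold change 0.31, edgeR adjusted p = 0.169). Zfp473, which codes for a zinc finger protein of the histone 3′-end complex, and Lsm11, a U7 particle protein, had log2 fold changes of 0.50 and -0.67 (edgeR adjusted p = 0.185 and 0.194). Of 38 histone chaperones and exchange factors, 35 were tested, with 20 positive and 15 negative (median 0.07, and -0.03 under library totals). edgeR called none, and 4 were higher and 4 lower at an unadjusted p under 0.05, beside 8.85% and 18.8% of all genes.

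DESeq2 called 2 of these lower, Anp32e and Atrx, beside 7.67% of all genes. Anp32e, which removes H2A.Z from nucleosomes, stood at 9.35, 7.37 and 17.0 against 5.23, 4.89 and 5.08 FPKM, with control 3 highest and no overlap (log2 fold change -1.05, SE 0.28; edgeR adjusted p = 0.166, DESeq2 adjusted p = 0.0158). Atrx, which deposits H3.3 at repeats with Daxx, stood at 3.13, 2.01 and 5.92 against 1.64, 1.6 and 1.71 FPKM in the same library order (log2 fold change -1.05, SE 0.34; edgeR adjusted p = 0.166, DESeq2 adjusted p = 0.0303). Znhit1, a subunit of the complex that deposits H2A.Z, stood at 158, 155 and 119.5 against 169, 174 and 172 FPKM (log2 fold change 0.35, SE 0.13; edgeR adjusted p = 0.167). H2afz itself lay within 182 to 208 FPKM in all 6 libraries.

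DNA replication genes, whose products work in the phase in which replication-dependent histones are made, were at similar levels. The 25 genes summed to 331, 352 and 314 FPKM under the label control and 333, 336 and 342 FPKM under the label cKO, with overlap. Of these, 14 had positive and 11 negative log2 fold changes, with a median of 0.04 (-0.06 under library totals). Pola1, a polymerase alpha subunit, stood at 0.73, 0.67 and 1.09 against 0.45, 0.44 and 0.43 FPKM (log2 fold change -0.80, SE 0.26; edgeR adjusted p = 0.166), and it alone had an unadjusted p under 0.05. Fen1, a flap endonuclease, and Top2a, a topoisomerase, had log2 fold changes of 0.26 and 0.21 (edgeR adjusted p = 0.192 and 0.262).

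Sequence shared within the family limits how far single genes can be read. Of the runs of 50 bases in its transcripts, Hist1h2bp shared 44.1% with another histone gene, Hist1h3a 49.5%, Hist1h4a 39.6%, Hist1h2ba 38.2%, Hist1h2bc 29.3% and Hist1h1c 8.54%. H3f3a and H2afb1 shared none. The pseudogene Hist3h2bb-ps, with 0.68, 0.91 and 2.42 against 1.67, 2.85 and 1.69 FPKM, had a log2 fold change of 0.71 (SE 0.53; edgeR adjusted p = 0.372).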

How the data were processed

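The RNA was DNase-treated total RNA from which mRNA was isolated with oligo(dT), per the labels' protocols. The deposited tables give expected counts and FPKM per gene, per the file headers. The submitters' processing notes name bcl2fastq 2.16, HISAT2 2.0.4, Bowtie2 2.2.5, RSEM, DESeq2 and mm10, with no role for any. The authors' FPKM values carry their own scaling for gene length and library depth. Deposited expected counts are not normalized, and 24.6 to 25.8% of them were not whole. A gene absent from a table was set to 0, and the lowest deposited FPKM was 0.01, so no detection limit was computed for it. Samples were grouped by title.

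Expected counts, rounded to whole numbers, entered edgeR 4.0.16 under R 4.3.3 (filterByExpr with minimum count 10 and minimum total 15, TMM, glmQLFTest, Benjamini-Hochberg over 18269 genes at 0.05). The common biological coefficient of variation was 22.8%, so for well-read genes counting error was small beside the spread between libraries, and for genes near 10 counts it was not. Log2 fold changes are labelled cKO minus labelled control. FPKM is given as mean ± SD and classes and lists as counts and medians, without a test. The script was tested on simulated data. Alternatives were DESeq2 1.42.0 and its size factors, library totals, limma 3.58.1 on log2(FPKM + 1) and log2(FPKM + 0.1), no filter, a filter of 5 CPM in 3 libraries, leaving out each library, the replicate number as a block and, chosen after seeing the data, near-identical copies summed.

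Genes named are L3mbtl2, replacement, testis and oocyte members with a mean of at least 1 FPKM in either group, the 10 most abundant replication-dependent members, members with an unadjusted p under 0.05 or a DESeq2 call, and the 3 genes of smallest p in each list that is not of a cell type. H2bfm, H1foo, Hist2h3c1, Hist3h2bb-ps and Prm1 fall outside that rule and were chosen after their values were seen. The members and lists were chosen with earlier results of these data known. Sequences come from GENCODE M21 and RefSeq tables of GRCm38.p6, the primary assembly of mm10. Identical runs of 50 bases were counted among histone transcripts only.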

Additional observations from a re-analysis of the deposited data

How the results depend on the processing

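Over all genes, edgeR called 0 higher and 0 lower, DESeq2 72 and 1364, and limma on log2(FPKM + 1) and on log2(FPKM + 0.1) 1 and 1 higher. Leaving out each library in turn gave 0 to 2049 higher and 0 to 3851 lower, with the highest counts without the library labelled control 2. For histone genes the ranges were 0 to 2 higher and 0 to 4 lower, and DESeq2 called 1 lower. The causes were not tested. L3mbtl2 had a log2 fold change of 0.69 in DESeq2 (adjusted p = 0.000497) and 0.64 to 0.73 with a library left out, but 0.19 and 0.20 in limma on log2(FPKM + 1) and log2(FPKM + 0.1) (adjusted p = 0.252 and 0.262). With the replicate number as a block, edgeR called 0 genes higher and 0 lower; same-numbered libraries deviated together at r = 0.04, -0.0067 and -0.04, so the numbers are not treated as pairs. For the 37 genes named, 16 of 541 alternative values passed the threshold and 21 reversed direction without passing it. No gene passed it in the main test, so none could lose it. The reversals under library totals, limma with 1 and limma with 0.1 were -0.0221, -0.0203 and -0.0209 for H2afx, -0.0065, -0.0032 and -0.0032 for H3f3a, and -0.0516, -0.0145 and -0.0103 for Hist1h2al. Hist3h2a was -0.15 and -0.17 in limma, H2afv 0.0015 in DESeq2, and Hist2h3c2 0.0032 with its copy added. With a library left out, log2 fold changes ran from -0.29 to 0.16 (H2afb3), -0.0826 to 0.1108 (H2afv), -0.25 to 0.0307 (H2afy2), -0.10 to 0.30 (Hist1h1t), -0.27 to 0.38 (Hist1h2al) and -0.40 to 0.0278 (Hist2h3c2). Low counts left 47 of the 81 histone genes untested.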
